A study of Mus musculus with 8 samples.

Results

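The genes described here form the amino acid stress program of the transcription factor ATF4, measured in myeloid cells (CD11b+) that were drawn from the ascites of mice bearing ID8 ovarian tumors. They were chosen by name, as 34 genes known for their place in this program. The rule used no measured value, but the list was drawn up with earlier results of these arrays known. Array features whose only annotated symbol was a member were averaged per gene, which gave a value for 32 of the 34 members among 22180 genes in all. Pycr1, which encodes an enzyme of the last step of proline synthesis, has no feature under its symbol in the annotation used here, and the feature listed for the glycine transporter gene Slc6a9 also lists a neighbouring gene, so neither was measured. The 32 members fall into 5 roles: 7 transcription factor and regulator genes, 6 genes of serine and one-carbon synthesis, 4 genes of asparagine, proline and transsulfuration enzymes, 7 amino acid transporter genes and 8 stress effectors and other targets.

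ID8 cells, a mouse ovarian cancer line, were injected into the peritoneum of female C57BL/6 mice that were 8 weeks old. The anti-LIF group (4 mice, replicates 5 to 8) received an antibody that neutralizes the cytokine LIF. In the sample records it ran from day 12 after inoculation for 25 days, while a figure legend of the study gives a later start day for the ID8 model. The control group (4 mice, replicates 1 to 4) is called untreated in the labels, while the methods of the study speak of a control IgG. Both groups carried the same tumor, no mouse without a tumor was analysed here, and each mouse gave 1 Affymetrix Mouse Gene 2.1 ST array of cells held by anti-CD11b beads. Values are log2 intensities, and log2 differences are fold changes on that scale, anti-LIF minus control, from limma over all genes, with Benjamini-Hochberg adjusted p-values and the study's threshold of 0.1. A gene is called higher or lower here only where it passed that threshold.

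ATF4 is a basic leucine zipper factor at the end of the integrated stress response. Kinases that sense a shortage of amino acids, unfolded protein, heme shortage or double-stranded RNA phosphorylate the translation factor eIF2, general protein synthesis falls, and the Atf4 mRNA is translated more. Much of the control of ATF4 is therefore on its translation, which arrays do not measure. With partners of the C/EBP family, ATF4 binds composite elements in genes that make, import and charge amino acids, and in genes that later restrain the response. Macrophages use the same genes to take up cystine for glutathione and to make serine, glycine and one-carbon units.

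The composite element is shown first because it is the sequence through which ATF4 is known to reach several members. Promoter windows of 300 bases, from 250 before to 50 after the annotated start (RefSeq, build GRCm38.p6), were at hand for 28 of the 34 members. Slc1a5, Slc7a3, Cth, Aldh1l2, Slc7a5 and Eif4ebp1 had none. The windows were searched on both strands for TGATGNAA, the core of the element. It was present for 8 members (28.6% of 28), against 4.51% of the 27025 genes with a window and 3.97% of all 32851 windows. The members were chosen for being in this program, so the difference describes the list and was not tested. The 9 matches are printed with 8 bases on each side, in the direction of the motif, with the motif in capitals, so that the shared core and the differing flanks can be compared.
Atf3, chr1:191183428-191183451: ggacttggTGATGCAAgtgcgaga
Chac1, chr2:119351041-119351064: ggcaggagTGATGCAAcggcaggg
Trib3, chr2:152344031-152344054: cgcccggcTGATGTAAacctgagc
Slc7a11, chr3:50443664-50443687: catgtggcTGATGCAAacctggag
Slc7a11, chr3:50443645-50443668: ctgcatgaTGATGCAAattctcca
Asns, chr6:7693217-7693240: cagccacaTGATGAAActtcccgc
Nupr1, chr7:126625565-126625588: gccctgtcTGATGCAAtctggccc
Pycr1, chr11:120643836-120643859: cctgtgtaTGATGCAAtgcacaag
Vldlr, chr19:27216812-27216835: aggagcgcTGATGCAActattgct

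Of the 26 members with both a window and a measured level, 7 held the motif and 6 of these were lower, with a median log2 difference of -1.35, while of the 19 without it 15 were lower and 1 was higher, with a median of -0.79. No test was made of this split, and a gene without a match may hold the element outside the 300 bases searched. The core was the same TGATGCAA in Atf3, Chac1, Slc7a11, Nupr1, Pycr1 and Vldlr, and differed at the variable position in Trib3 and Asns. Slc7a11 held a pair of matches that face each other, 66 and 47 bases before the start. The match lay 23 bases before the start in Asns and 193 before it in Chac1, and in Trib3 it lay 14 bases after the start. The whole windows of these 4 genes are given because each stood among the larger falls of its role, with the matches in capitals on the strand of the gene (a match on the opposite strand reads TTNCATCA).
Slc7a11, chr3:50443564-50443863, minus strand: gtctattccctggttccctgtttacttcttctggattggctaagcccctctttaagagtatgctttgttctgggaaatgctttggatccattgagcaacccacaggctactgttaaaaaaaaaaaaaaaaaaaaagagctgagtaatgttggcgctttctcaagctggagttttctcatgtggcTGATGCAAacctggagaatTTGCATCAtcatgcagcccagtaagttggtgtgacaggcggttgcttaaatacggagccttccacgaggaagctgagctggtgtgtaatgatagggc
Asns, chr6:7693160-7693459, minus strand: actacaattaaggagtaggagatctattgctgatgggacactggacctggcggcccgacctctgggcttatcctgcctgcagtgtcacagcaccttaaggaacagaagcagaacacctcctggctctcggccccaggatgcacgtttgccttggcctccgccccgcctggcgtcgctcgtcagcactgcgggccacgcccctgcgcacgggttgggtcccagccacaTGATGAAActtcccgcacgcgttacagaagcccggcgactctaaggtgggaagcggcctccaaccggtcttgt
Chac1, chr2:119350992-119351291, plus strand: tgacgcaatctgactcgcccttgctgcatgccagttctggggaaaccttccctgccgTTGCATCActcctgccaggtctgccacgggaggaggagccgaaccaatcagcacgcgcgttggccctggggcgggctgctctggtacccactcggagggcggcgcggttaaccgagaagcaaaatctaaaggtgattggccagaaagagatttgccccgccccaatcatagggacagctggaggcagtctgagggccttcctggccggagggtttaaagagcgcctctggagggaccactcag
Trib3, chr2:152344011-152344310, minus strand: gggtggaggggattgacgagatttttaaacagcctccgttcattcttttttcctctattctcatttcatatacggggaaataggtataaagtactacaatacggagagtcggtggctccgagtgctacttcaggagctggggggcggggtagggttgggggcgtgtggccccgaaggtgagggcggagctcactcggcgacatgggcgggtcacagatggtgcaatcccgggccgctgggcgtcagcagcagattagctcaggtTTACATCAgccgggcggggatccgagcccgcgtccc

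**Figure D1:**
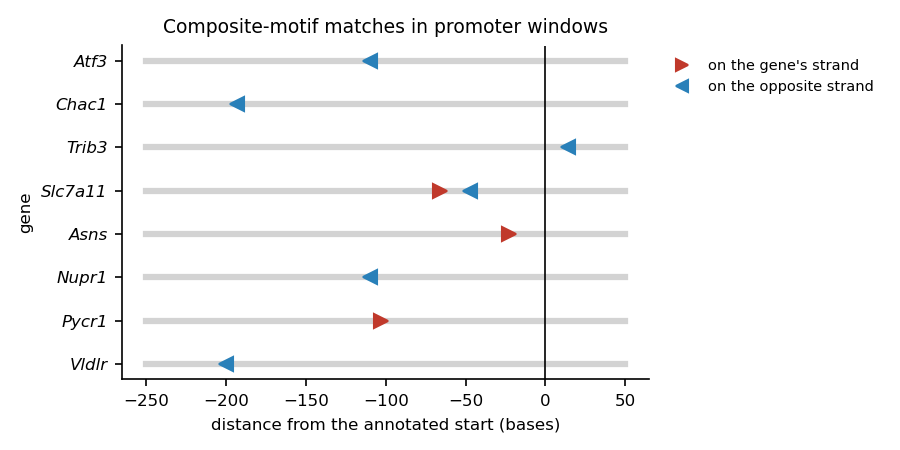
Positions of TGATGNAA matches in the promoter windows of the 8 members that hold one, as distance in bases from the annotated start (vertical line), with grey bars for the 300 bases searched. Triangles give the strand of the match relative to the gene, and Slc7a11 is the one gene shown with 2 matches.

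After anti-LIF treatment most of the program fell. Of the 32 members measured, 24 were lower and 1 was higher, which leaves 7 without a call. Of all 22180 genes, 11.0% were lower and 5.79% were higher. Genes with a mean log2 value above the median of all genes were called lower more often (20.6% of 11090), and 26 members lay above that median, 22 of them lower. The median log2 difference of the members was -0.81, and that of all genes was 0.03. For 20 members every anti-LIF array lay below every control array, which was so for 11.9% of all genes, and for 1 member every anti-LIF array lay above, which was so for 6.53%. With 4 arrays against 4, the exact two-sided permutation test gives each of these members p = 0.029, the smallest it can give. In the comparison as a whole, 8 arrays correlated at 0.96 to 0.974 within groups and at 0.935 to 0.964 across groups, over all features. CD11b+ preparations are bulk samples, so fewer cells of a type and less RNA per cell cannot be told apart.

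**Figure D2:**
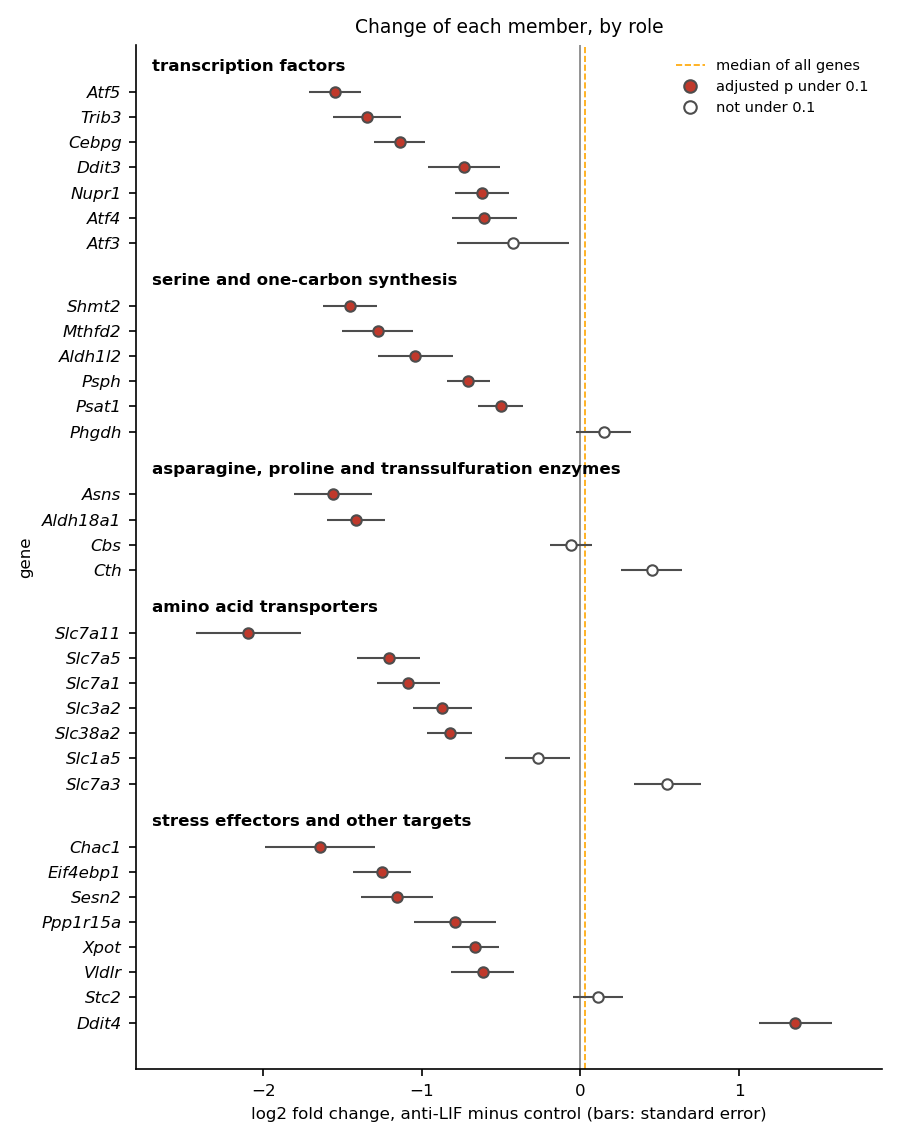
Log2 fold change (anti-LIF minus control, x axis) of each of the 32 measured members, grouped by role, with bars of 1 standard error and the median of all genes as a dashed line. Filled points passed an adjusted p of 0.1: 24 lie to the left of 0, and Ddit4 alone lies to the right, at 1.35.

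The medians of the roles were similar, and each role held genes that were not called lower. The median log2 fold change was -0.73 for the transcription factors and regulators (6 of 7 lower), -0.87 for serine and one-carbon synthesis (5 of 6 lower), -0.74 for the asparagine, proline and transsulfuration enzymes (2 of 4 lower), -0.87 for the amino acid transporters (5 of 7 lower) and -0.73 for the stress effectors (6 of 8 lower, 1 higher). Differences between the roles were not tested. Within each role the range was wider than the distance between the medians, from -2.09 to 0.55 among the transporters and from -1.64 to 1.35 among the effectors. The median of the asparagine, proline and transsulfuration enzymes lay between separate values. Asns (-1.56) and Aldh18a1 (-1.42) were lower, while Cbs (-0.06) and Cth (0.45) had no call.

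Among the transcription factors and regulators all but Atf3 were lower, and Atf4 had the largest adjusted p of those called. Atf4 was at 9.30, 9.86, 10.33 and 10.23 in control replicates 1 to 4 and at 9.27, 9.17, 9.45 and 9.40 in anti-LIF replicates 5 to 8. Control replicate 1 lay among the treated mice and the other 3 controls lay above them, so the groups overlapped. The log2 difference was -0.61 (limma, adjusted p = 0.084, standard error 0.20). This call was lost when any array but control replicate 1 was left out (-0.82 without it, and -0.47 to -0.65 without one of the others). The Atf4 call was also lost with quantile normalization again (-0.48, adjusted p = 0.18 from limma). Atf5, a close relative that ATF4 induces and that acts on mitochondrial stress genes, was at 6.94, 7.51, 7.44 and 7.15 in controls and at 5.76, 5.99, 5.53 and 5.56 in treated mice. Its groups were well apart, and the log2 difference of -1.55 (standard error 0.16, adjusted p = 7.9e-04 from limma) is a 2.92-fold lower level.

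Cebpg, which encodes a C/EBP partner of ATF4, was at 7.26, 7.57, 7.67 and 7.72 in controls and 6.78, 6.17, 6.38 and 6.33 in treated mice. All 4 treated mice were lower, with a log2 difference of -1.14 (standard error 0.16, adjusted p = 0.0028 from limma). Trib3, a pseudokinase gene whose product binds ATF4 and limits it, was at 5.38, 6.19, 6.45 and 6.23 in controls and 4.80, 4.68, 4.96 and 4.44 in treated mice. The groups did not overlap, and the level was 2.54-fold lower (adjusted p = 0.0046). Ddit3, which encodes the pro-apoptotic factor CHOP, was at 7.76, 8.44, 8.73 and 8.98 in controls and 7.97, 7.75, 7.49 and 7.76 in treated mice, again with control replicate 1 among the treated mice. Its log2 difference was -0.73 (adjusted p = 0.064 from limma). The call was lost without control replicate 2, 3 or 4 or anti-LIF replicate 6, 7 or 8 (-0.57 to -0.75 over these fits). It was also lost with quantile normalization again (-0.58, adjusted p = 0.14 from limma).

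Nupr1, the gene of a small stress-induced chromatin protein, had a log2 difference of -0.62 (limma, adjusted p = 0.041, standard error 0.17). The call was lost without control replicate 3 or anti-LIF replicate 8 (-0.50 and -0.54). It was also lost with quantile normalization again (-0.46, adjusted p = 0.11 from limma). Atf3, a stress-induced repressor that many other signals also raise, was the member of this role that did not pass the test. Its controls ran from 6.23 in replicate 1 to 8.34 in replicate 3, a wider spread than that of the treated mice, which ran from 6.78 to 7.34. The log2 difference was -0.43 (adjusted p = 0.48), and without control replicate 1 it was -0.82 (adjusted p = 0.061).

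**Figure D3:**
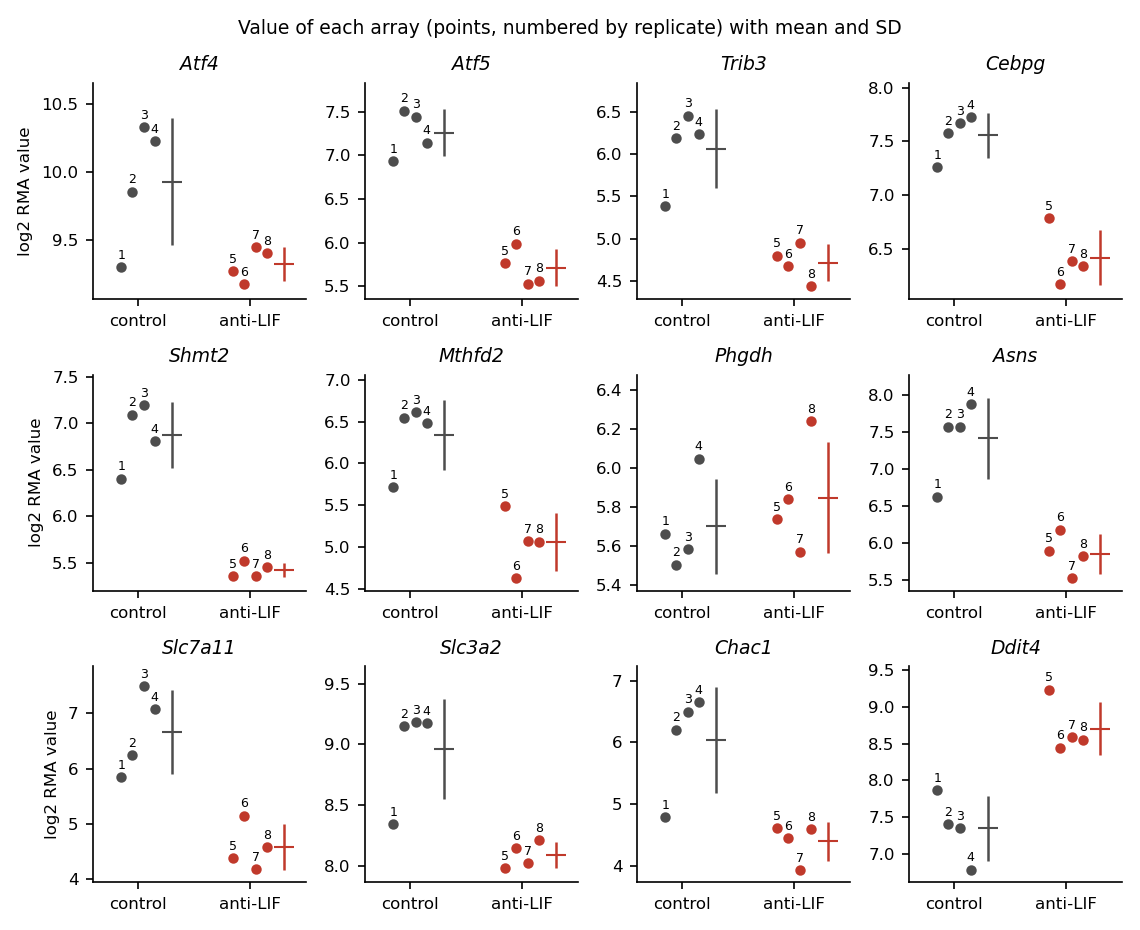
Log2 RMA value (y axis, own range in each panel) of 12 members in each array, with points numbered by replicate and the mean and SD of each group (n = 4) to their right. Control replicate 1 is the lowest control in each panel except Phgdh and Ddit4, and it lies within the treated range for Atf4 (9.30).

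In serine and one-carbon synthesis the mitochondrial steps fell most and the first step of serine synthesis did not pass the test. Phgdh, which encodes the dehydrogenase that opens the pathway from glycolysis to serine, was at 5.66, 5.51, 5.59 and 6.05 in controls and 5.74, 5.84, 5.57 and 6.24 in treated mice. The groups overlapped throughout, with a log2 difference of 0.15 (standard error 0.17, adjusted p = 0.63 from limma). The genes of the next steps were lower, Psat1 (the aminotransferase) by a log2 difference of -0.50 (adjusted p = 0.042) and Psph (the phosphatase) by one of -0.71 (adjusted p = 0.0095). The Psat1 call was lost without control replicate 2 or anti-LIF replicate 8 (-0.40 and -0.44).

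Shmt2, the mitochondrial enzyme that splits serine into glycine and a one-carbon unit, was at 6.40, 7.09, 7.19 and 6.80 in controls and at 5.36, 5.52, 5.36 and 5.45 in treated mice. The treated values lay close together (SD 0.08, n = 4) and well below the lowest control, and the gene was 2.73-fold lower (adjusted p = 0.0012 from limma). Mthfd2, which carries that unit on in mitochondria, was at 5.72, 6.55, 6.61 and 6.48 in controls and 5.49, 4.63, 5.07 and 5.07 in treated mice. Its groups did not overlap, although control replicate 1 and anti-LIF replicate 5 came close, and the log2 difference was -1.28 (standard error 0.22, adjusted p = 0.0065). Aldh1l2, a mitochondrial folate dehydrogenase gene, had a log2 difference of -1.04 (standard error 0.23, adjusted p = 0.019). Its means were low, 4.53 in controls and 3.49 in treated mice, and whether the signal of Aldh1l2 exceeded background is not known.

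Other folate genes were sorted by compartment after these values were seen. Of 7 mitochondrial folate genes, including these 3, 5 were lower and none was higher, with a median log2 difference of -0.65. Over all genes 11.0% were lower. The falls of the 3 members prompted this list, so its count and median are in part set by that choice. The others in the list that fell were Mthfd1l, which releases formate, at -0.65 (adjusted p = 0.027 from limma) and Slc25a32, the mitochondrial folate carrier, at -0.53 (adjusted p = 0.084). Mthfd2l (0.14) and Mtfmt (-0.23) had no call. Of 4 measured cytosolic folate genes none passed the test. Their log2 differences ran from -0.04 to 0.31, with a median of 0.04. The difference between the compartments was not tested. Of all 13 measured one-carbon and glycine cleavage genes outside the members, 4 were lower and none was higher. That is 30.8% lower, against 11.0% of all genes and 20.6% of those above the median level. The largest fall was that of the methionine synthase reductase gene Mtrr (-0.84, adjusted p = 0.010). Mtrr and Mtr (-0.05) were in neither compartment list, so the split leaves them out. It also leaves out the mitochondrial glycine cleavage genes Amt (0.09), Gldc (0.20) and Dld (-0.41, adjusted p = 0.046 from limma). Of these, Amt and Gldc had no call, so the mitochondrial list does not cover all measured mitochondrial genes of this kind.

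Asns, the asparagine synthetase gene and a reference target of ATF4, was at 6.63, 7.57, 7.58 and 7.88 in controls and at 5.89, 6.18, 5.52 and 5.82 in treated mice. Every treated mouse was below every control, and the level was 2.95-fold lower (log2 fold change -1.56, standard error 0.24, adjusted p = 0.0043 from limma). Aldh18a1, which encodes the enzyme that starts proline synthesis from glutamate, was at 6.36, 7.08, 6.94 and 7.02 in controls and 5.66, 5.62, 5.26 and 5.19 in treated mice. These groups were apart too, with a 2.67-fold lower level (adjusted p = 0.0019). The transsulfuration genes, which turn homocysteine into cysteine, did not pass the test. Cbs had a log2 difference of -0.06 (adjusted p = 0.80 from limma) and Cth one of 0.45 (adjusted p = 0.17). Both had low control means, 3.84 for Cbs and 3.44 for Cth, against a median of 4.57 over all genes, and whether their signal exceeded background is not known from normalized values.

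Among the amino acid transporters the cystine importer fell most. Slc7a11, the light chain of the cystine and glutamate exchanger, was at 5.84, 6.24, 7.49 and 7.08 in controls and at 4.38, 5.15, 4.18 and 4.58 in treated mice. The control values were spread out (SD 0.76, n = 4) and still lay above all treated values, and the level was 4.27-fold lower (log2 fold change -2.09, standard error 0.33, adjusted p = 0.0044 from limma), the largest change among the 32 members measured. Its 2 array features gave -1.97 and -2.21. Slc7a5, the light chain of the large neutral amino acid transporter, was at 7.82, 8.61, 8.60 and 8.74 in controls and 7.27, 7.01, 7.23 and 7.43 in treated mice. It was 2.31-fold lower (adjusted p = 0.0046), without overlap.

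Slc3a2 encodes the heavy chain that both of these light chains need at the cell surface. It was at 8.35, 9.15, 9.18 and 9.18 in controls and at 7.98, 8.15, 8.02 and 8.22 in treated mice, with control replicate 1 nearer to the treated mice than to the other controls. The log2 difference was -0.87 (standard error 0.19, adjusted p = 0.015 from limma). Slc7a1, a carrier of arginine and lysine, had a log2 difference of -1.08 (adjusted p = 0.0075) and Slc38a2, a carrier of small neutral amino acids, one of -0.82 (adjusted p = 0.0060), both without overlap.

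The glutamine carrier gene Slc1a5 and the arginine carrier gene Slc7a3 did not pass the test. Slc1a5 ran from 5.79 to 6.52 in controls and from 5.34 to 6.17 in treated mice, with a log2 difference of -0.27 (adjusted p = 0.43 from limma), and its 2 features gave -0.51 and -0.03. Slc7a3, with a control mean of 3.83 below the median of all genes, had a log2 difference of 0.55 (adjusted p = 0.13), and it was called higher without anti-LIF replicate 5 (0.71, adjusted p = 0.062). Of 27 amino acid transporter genes outside the members, 8 were lower and 2 higher, and 17 had no call, with a median log2 difference of -0.02. That is 29.6% lower and 7.41% higher, against 11.0% and 5.79% of all genes (20.6% lower among genes above the median level). The largest falls were those of Slc43a3 (-1.68, adjusted p = 0.0011), which is better known as a carrier of purine bases, of the alanine and serine carrier gene Slc1a4 (-0.96, adjusted p = 0.0069) and of the taurine carrier gene Slc6a6 (-0.86, adjusted p = 0.0031). The higher ones, picked out after their values were seen, were the arginine carrier gene Slc7a2 (0.68, adjusted p = 0.0066) and Slc3a1 (0.56, adjusted p = 0.065), the heavy chain of a cystine and basic amino acid carrier of kidney and gut. The control mean of Slc3a1 was 3.51, below the median of all genes. Whether its signal exceeded background is not known.

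The stress effectors held the one member that rose. Ddit4, which encodes the mTORC1 inhibitor REDD1 and answers also to hypoxia and glucocorticoids, was at 7.86, 7.40, 7.35 and 6.79 in controls and at 9.23, 8.45, 8.59 and 8.56 in treated mice. Every treated mouse was above every control, with replicate 5 the highest, and the level was 2.56-fold higher (log2 fold change 1.35, standard error 0.23, adjusted p = 0.0058 from limma). It stayed higher in all 16 alternative fits (1.17 to 1.53). Sesn2, whose product also restrains mTORC1 and senses leucine, went the other way, from 5.92, 6.53, 6.81 and 6.92 to 5.82, 5.07, 5.24 and 5.41. It was 2.23-fold lower (adjusted p = 0.010), although control replicate 1 and anti-LIF replicate 5 nearly met.

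Chac1, which encodes an enzyme that degrades glutathione, was at 4.78, 6.21, 6.50 and 6.65 in controls and 4.61, 4.45, 3.93 and 4.59 in treated mice. Control replicate 1 lay far below the other controls and just above the highest treated mouse. The log2 difference was -1.64 (limma, adjusted p = 0.014, standard error 0.35), and -2.06 without control replicate 1. Eif4ebp1, the gene of the translation repressor 4E-BP1, was at 6.87, 6.93, 7.64 and 7.54 in controls and 5.98, 6.14, 5.99 and 5.87 in treated mice. The groups were apart and the level was 2.38-fold lower (adjusted p = 0.0034).

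Ppp1r15a, which encodes the GADD34 subunit that takes the phosphate off eIF2, had a log2 difference of -0.79 (adjusted p = 0.075 from limma), and Vldlr, a lipoprotein receptor gene, one of -0.62 (adjusted p = 0.073). Their groups overlapped. Each call was lost without control replicate 2, 3 or 4 or without anti-LIF replicate 7, and also without replicate 5 or 6 for Ppp1r15a and without replicate 8 for Vldlr (-0.65 to -0.83 for Ppp1r15a and -0.43 to -0.61 for Vldlr over these fits). The Ppp1r15a call was also lost with quantile normalization again (-0.70, adjusted p = 0.11 from limma). Xpot, the exporter of tRNA from the nucleus, had a log2 difference of -0.66 (adjusted p = 0.018). Stc2, which encodes a secreted glycoprotein, was at 0.11 (adjusted p = 0.70), with a control mean of 4.13 below the median of all genes.

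**Figure D4:**
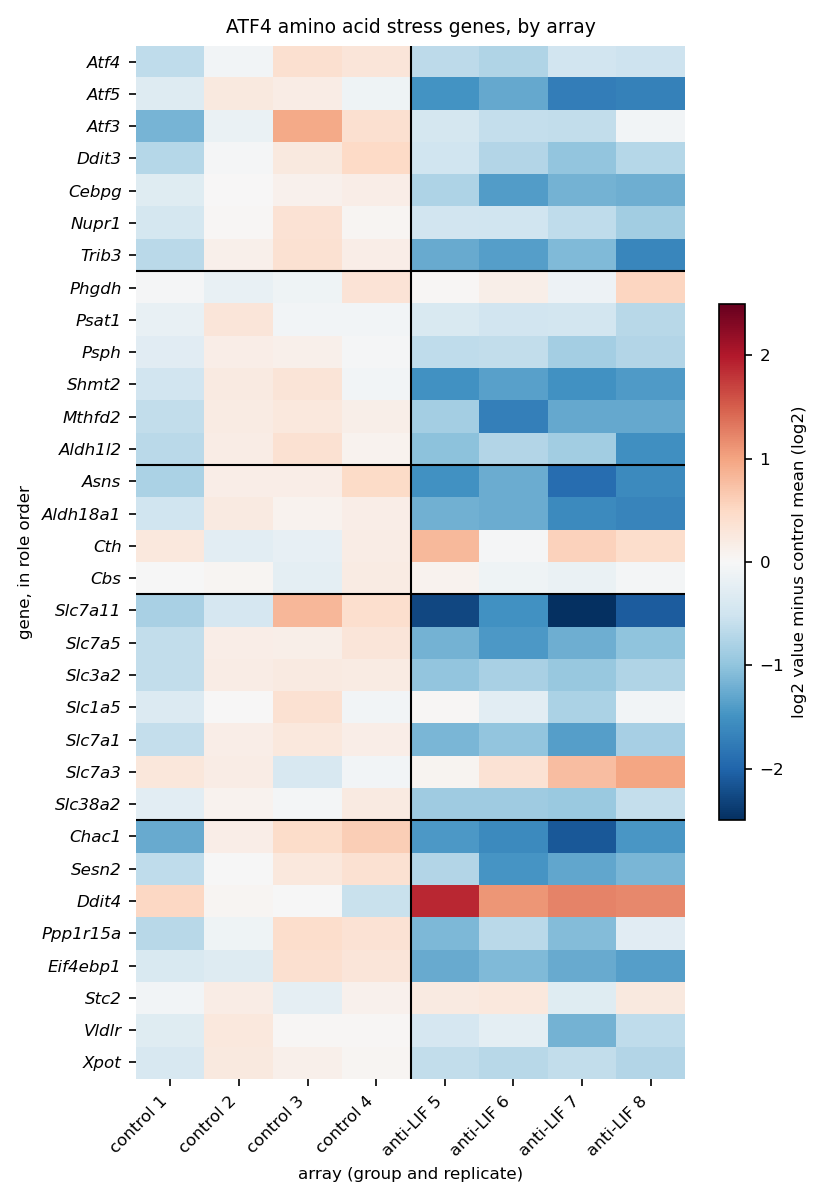
Log2 value minus the control mean (colour, in log2 units) of each of the 32 members (rows, in role order, separated by lines) in each of the 8 arrays (columns). The control replicate 1 column is paler blue through much of the list, and the anti-LIF columns are blue for most members, with Ddit4 red in all 4.

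One control mouse stood nearer to the treated mice across the program. Control replicate 1 was the lowest control for all 24 members that were lower after treatment, and for 26 of the 32 measured. Over all genes it was the lowest control for 26.6%, and over the 2448 genes called lower for 49.6%. The mean log2 value of the 24 lower members was 6.54 in control replicate 1 and 7.18, 7.34 and 7.29 in control replicates 2, 3 and 4, and from 5.88 to 6.07 in the treated mice. This mean describes genes that were chosen by the comparison and was not tested. Without control replicate 1 each of these 24 members was again lower, and Atf3 was lower as well.

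Gene groups around the program gave a mixed picture. Of the kinases that phosphorylate eIF2, Eif2ak1, the heme-regulated kinase, was lower (log2 fold change -0.76, adjusted p = 0.0034 from limma). The other kinases did not pass the test: Eif2ak4, which senses uncharged tRNA, was at 0.14 (adjusted p = 0.56), Eif2ak3, which senses unfolded protein in the endoplasmic reticulum, at -0.27 (adjusted p = 0.24), and Eif2ak2, which senses double-stranded RNA, at 0.13 (adjusted p = 0.67). Of 13 measured genes of eIF2 kinases, eIF2, its exchange factor eIF2B and their regulators, 5 were lower and none was higher, with a median of -0.36. That is 38.5% lower, against 11.0% of all genes and 20.6% of those above the median level. Phosphorylated eIF2 was not measured by the arrays.

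Many aminoacyl-tRNA synthetases of the cytosol are known targets of ATF4. Of 18 measured of 20 listed, 12 were lower and 6 had no call, with none higher, with a median log2 difference of -0.56. That is 66.7% lower, against 11.0% of all genes and 20.6% of those above the median level. Sars, the seryl-tRNA synthetase gene, fell most (-1.27, standard error 0.13, adjusted p = 7.9e-04 from limma), followed by Eprs, for glutamate and proline (-0.97, adjusted p = 0.0080), and Iars, for isoleucine (-0.83, adjusted p = 0.0095). Of 16 measured mitochondrial synthetases, a list added after these results, 1 was lower (Pars2, -0.52, adjusted p = 0.023), 1 was higher (Tars2, 0.38, adjusted p = 0.060) and 14 had no call, with a median of -0.01. The difference between these lists was not tested. Their levels also differed, with a median control level of 7.41 for the cytosolic and 5.26 for the mitochondrial list. Genes above the median level were called lower more often than all genes.

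The other branches of the unfolded protein response and the NRF2 program, which shares Slc7a11 with ATF4, were read on the same arrays. Over all genes 11.0% were lower, and 20.6% of those above the median level. Of 17 measured genes of the IRE1 and ATF6 branches, 7 (41.2%) were lower and none was higher, with a median of -0.40. Herpud1, which ATF4 also induces, was at -1.05 (adjusted p = 0.0061 from limma), Atf6 at -0.95 (adjusted p = 0.0028) and Xbp1 at -0.78 (adjusted p = 0.0081), while the chaperone gene Hspa5 was at -0.18 (adjusted p = 0.46). Of 14 NRF2 genes, 11 (78.6%) were lower and none was higher, with a median of -0.87. Among them were Hmox1, which encodes heme oxygenase (-1.66, adjusted p = 0.0013), and the glutathione synthesis genes Gclc (-1.44, adjusted p = 0.0097) and Gclm (-1.42, adjusted p = 0.0044).

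**Figure D5:**
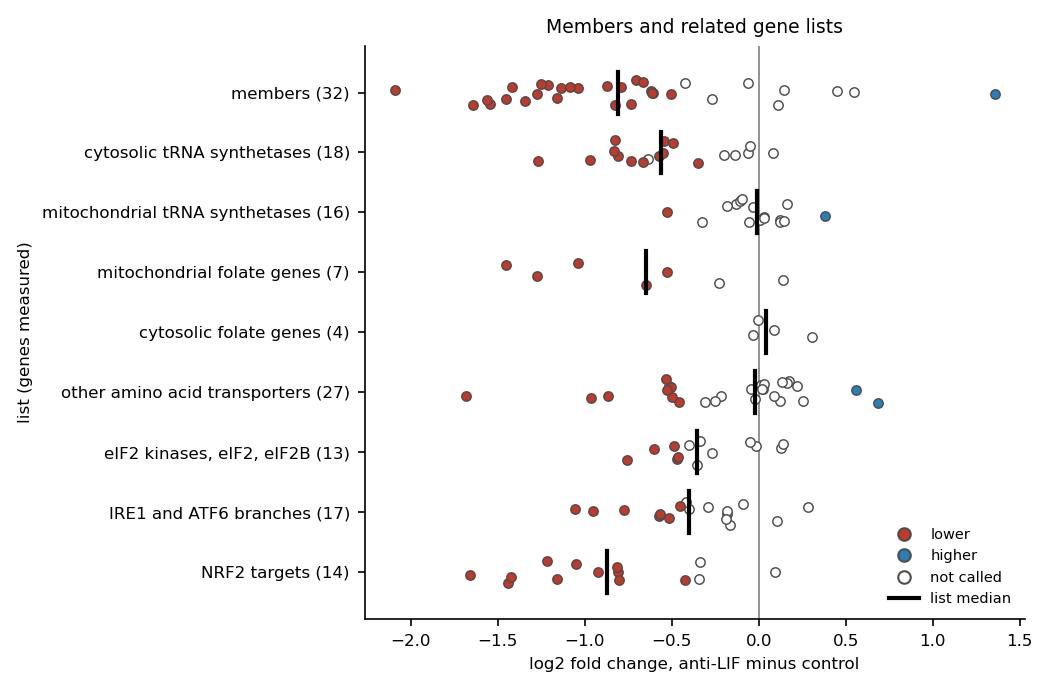
Log2 fold change (anti-LIF minus control, x axis) of each measured gene of the members and of related lists (y axis, number of genes measured in parentheses), with black bars at list medians and colours for an adjusted p under 0.1. Medians lie at -0.81 for the members, -0.56 for the cytosolic and -0.01 for the mitochondrial synthetases, and -0.87 for the NRF2 targets; points are spread vertically for visibility only.

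Markers of cell types were read on the same arrays, where 11.0% of all genes were lower and 5.79% higher. Most macrophage genes were lower, and most genes of each other marker list had no call. Of 12 macrophage genes 7 were lower and none was higher, and the mean log2 value of that list ran from 8.55 to 9.38 in controls and from 8.08 to 8.33 in treated mice, without overlap. Control replicate 1 was at 8.67 there, between replicate 4 at 8.55 and replicates 2 and 3. The largest falls in that list were those of Cd68 and Cd14, at -1.41 (adjusted p = 0.0028 from limma) and -1.58 (adjusted p = 0.0084). Itgam, which encodes CD11b, had no call, with a log2 difference of -0.17 (adjusted p = 0.59 from limma). The others without a call were C1qa (-0.52), Csf1r (-0.33), Lyz2 (-0.09) and Aif1 (0.36). Of 10 neutrophil genes 2 were lower (list mean 5.29 to 5.81 in controls and 4.99 to 5.32 in treated mice), namely S100a8 (-1.32, adjusted p = 0.036) and Mmp8 (-1.25, adjusted p = 0.032). The other 8 had no call, among them the defining marker Ly6g (0.55, adjusted p = 0.27). That share of lower genes, 2 of 10, stands beside 11.0% of all genes and 20.6% of those above the median level. Mmp8 and other genes of this list lay below that level. Among 12 genes of T and NK cells, 2 were higher (3.78 to 3.95 against 3.98 to 4.69), and of 9 B and plasma cell genes 1, Jchain, was higher and 1, Sdc1, was lower (3.97 to 4.36 against 4.54 to 4.63). Of 12 tumor and mesothelial genes 2 were higher and 2 lower (7.46 to 7.88 against 7.69 to 7.97), and of 15 genes of dividing cells, which also use the serine pathway, 5 were higher and 1 was lower (5.56 to 5.93 against 5.87 to 6.10). The part of these values in the fall of the ATF4 program was not tested.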

How the data were processed

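RNA from CD11b+ cells of 4 control and 4 anti-LIF mice was assayed on Affymetrix Mouse Gene 2.1 ST arrays. RMA was run at Progenika, and the authors deposited the resulting log2 values for 41345 features. R 3.1.2 appears in the submitters' processing notes. The RMA implementation is not given in the sources used here. Per gene, features carrying 1 symbol (23521) were averaged, which gave 22180 genes (1082 of them from more than 1 feature). Left out were 1820 features with more than 1 symbol and 16004 without any. No filter on low values was applied. Groups came from the sample labels, and no array batch is given there. The groups were contrasted gene by gene in limma 3.58.1 under R 4.3.3, using lmFit with eBayes, and Benjamini-Hochberg adjustment ran over all genes. The study's methods name paired samples but no pairs, so none were used. The exact two-sided permutation test runs over the 70 assignments of 8 arrays. The fit was tested on simulated data. The members, their roles, the related lists and the rule for named genes (all members, the 4 eIF2 kinases, up to 3 called genes of each related list with the largest changes, and up to 2 called genes of each marker list) were chosen with earlier results of these data known. Promoter windows came from RefSeq. The alternatives were array centring, quantile normalization again, other handling of several features, a level filter, trend and robust priors, array weights, a stricter threshold and leaving out each array. Precision rests on 4 arrays a group (median standard error over genes 0.156). Figures were drawn with matplotlib 3.10.9.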

Additional observations from a re-analysis of the deposited data

Results flagged for a closer look

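Each member was examined in each group of 4 mice for a value far from the other 3, by the gap to its nearest neighbour as a share of the range (Dixon's 95% limit). Chance gives such a value in about 1 in 20 groups, and 6 of the 64 groups had one. Control replicate 1 was the lowest and apart in 4 of them. It was at 5.72 for Mthfd2, where the other controls ran from 6.48 to 6.61, and at 7.82 for Slc7a5 (others 8.60 to 8.74). For Slc3a2 it was at 8.35 (others 9.15 to 9.18), and for Slc7a1 at 6.05 (others 6.81 to 6.90). Slc7a5 and Slc3a2 encode the 2 chains of one transporter, and the 4 genes share the mouse, so these values are not independent. All 4 genes were lower with and without that mouse. Anti-LIF replicate 8 was the highest treated mouse for Slc38a2, at 8.57 (others 8.23 to 8.28), and anti-LIF replicate 7 the lowest for Stc2, at 3.83 (others 4.36 to 4.40).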

How the results depend on the processing

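Of the 25 members called, 19 kept their direction and their side of the threshold under all 16 alternatives, and Atf4, Ddit3, Nupr1, Ppp1r15a, Psat1 and Vldlr lost their call under at least 1. Aldh1l2 and Vldlr lay below the level filter and were not tested under it. The causes were not tested. An adjusted p under 0.05 kept 21 of the 25. With quantile normalization again, 1798 genes in all were lower (2448 in the main fit) and 20 members. Atf4, Ddit3, Nupr1 and Ppp1r15a lost their call there. The number of lower transcription factors and regulators was 3 in that fit. It ran from 3 to 7 over the fits without 1 array, with 3 without control replicate 3 or anti-LIF replicate 8. The number of higher members ran from 1 to 2 without 1 array, the second being Slc7a3 without anti-LIF replicate 5 and Cth without anti-LIF replicate 6. Over all genes, 749 were higher with arrays centred on their medians, 2038 with each feature on its own (more features tested) and 674 at an adjusted p under 0.05, and from 802 to 1357 without 1 array. Higher genes were 34.4% of all calls, and 18.7% with arrays centred on their medians. That scaling lowered the median log2 difference of all genes from 0.03 to -0.06 and changed no call of a member. Cbs, not called, changed sign without control replicate 4 (0.0083) and ran from -0.14 to 0.0083 without 1 array. No paired analysis was possible because the study names no pairs and the groups share no replicate numbers. No signal over background could be set from normalized values, which bears on the 6 members below the median level, Aldh1l2, Cbs, Cth, Slc7a3, Stc2 and Vldlr. It bears also on the size of the falls of Slc7a11 and Chac1, with treated means of 4.57 and 4.39. The median over all genes in treated mice was 4.63, and Trib3 lay close to it at 4.72.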
